A study of Mus musculus with 18 samples.

Results

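The osteoclast genes and the RANKL axis, 10 genes chosen by name, were followed across 18 mouse tumors. They were the ligand *Tnfsf11* (RANKL), its receptor *Tnfrsf11a* (RANK), its decoy receptor *Tnfrsf11b* (osteoprotegerin), the fusion genes *Dcstamp* and *Ocstamp*, the receptors *Oscar* and *Calcr*, and the resorption enzymes *Acp5*, *Ctsk*, and *Mmp9*. All 10 genes were among the 20878 genes of the expression matrix. The tumors grew from K7M2 cells, a mouse osteosarcoma line of Balb/c origin, that carried either a lentiviral control shRNA (ATRXCT) or an shRNA against *Atrx* (ATRXKD). The hosts were immunocompetent Balb/c mice or NSG mice (NOD.Cg-Prkdc scid Il2rg tm1Wjl/SzJ), which lack T, B, and NK cells but keep macrophages and neutrophils. There were 4 ATRXCT tumors (mice 41, 43, 44, and 45) and 4 ATRXKD tumors (mice 56, 58, 59, and 60) in Balb/c, and 5 ATRXCT tumors (mice 1 to 5) and 5 ATRXKD tumors (mice 26 to 30) in NSG. Each tumor came from its own mouse. The methods housed mice in cages that were assigned to a group of cells, so cage and group cannot be told apart. The paper describes a single *ATRX* shRNA in the transduced K7M2 line, used in both hosts. Loss of ATRX and other traits of the transduced cells therefore cannot be told apart, and the tests below measure the spread between grafted tumors.

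Osteoclasts are large multinucleated cells that resorb bone, and they form when precursors of the macrophage lineage fuse. RANKL on osteoblasts, stromal cells, and activated T cells binds RANK on the precursors and starts this programme, whereas osteoprotegerin captures RANKL and blocks it. In osteosarcoma, a bone-forming tumor, the axis is studied because osteoclasts remodel the bone around the tumor, but these tumors were grafted under the skin, outside bone.

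Whole tumors were measured by total RNA sequencing, and a level is given below in FPKM (fragments scaled by transcript length and by library size). A difference is given on the log2 (FPKM + 1) scale, on which the tests ran. This scale understates the change of genes at low levels, most of all under about 1 FPKM and still at a few FPKM, *Tnfrsf11b* included. The depth estimated from the steps between low values was 15150000 to 25200000 fragments per tumor. The *Atrx* level was 17.6 ± 7.12 FPKM in ATRXCT and 13.95 ± 6.54 in ATRXKD tumors of Balb/c mice (SD, n = 4 each), and 17.6 ± 4.99 and 10.2 ± 3.47 in NSG mice (SD, n = 5 each), and neither difference passed the test (adjusted p = 0.999 and 0.061). The paper reports loss of ATRX protein in the K7M2 line by western blot, whereas these values are RNA of whole tumors, host cells included. The summed level of 8 T cell markers was 21.4 to 44.9 FPKM in Balb/c and 1.23 to 6.93 FPKM in NSG tumors. The mean log2 level of 4 Y-linked genes was 1.90 to 3.04 in every NSG tumor and at most 0.0041 in Balb/c tumors, although the methods describe female mice and a female cell line, so that strain, immune status, and this difference cannot be told apart in any comparison of hosts. Of 10 osteoblast markers, *Runx2*, *Spp1*, *Col1a1*, and *Phex* were above 1 FPKM in every tumor, while *Sp7*, *Alpl*, *Bglap*, *Bglap2*, *Ibsp*, and *Dmp1* stayed under 1 FPKM in every tumor.

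The levels of the 10 genes spanned from *Calcr*, listed at 0 in 17 tumors, to *Mmp9*, with 21.2 to 47.9 FPKM. Medians over the 18 tumors were 33.8 FPKM for *Mmp9*, 21.3 for *Acp5*, 12.9 for *Ctsk*, 5.78 for *Tnfrsf11a*, 1.83 for *Tnfrsf11b*, 0.62 for *Dcstamp*, 0.226 for *Ocstamp*, 0.215 for *Tnfsf11*, and 0.0347 for *Oscar*. The ranges of *Ocstamp* (0.157 to 1.13 FPKM) and *Tnfsf11* (0.039 to 0.435 FPKM) overlapped, as did those of *Acp5* (13.1 to 28.9), *Ctsk* (5.57 to 40.9), and *Mmp9*. Of these, 8 genes averaged 0.1 FPKM or more in the tumors of each comparison and so passed the filter on low values, and *Oscar* and *Calcr* did not. As the tumors were measured whole, fewer cells of a type and less RNA per cell cannot be told apart.

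**Figure D1:**
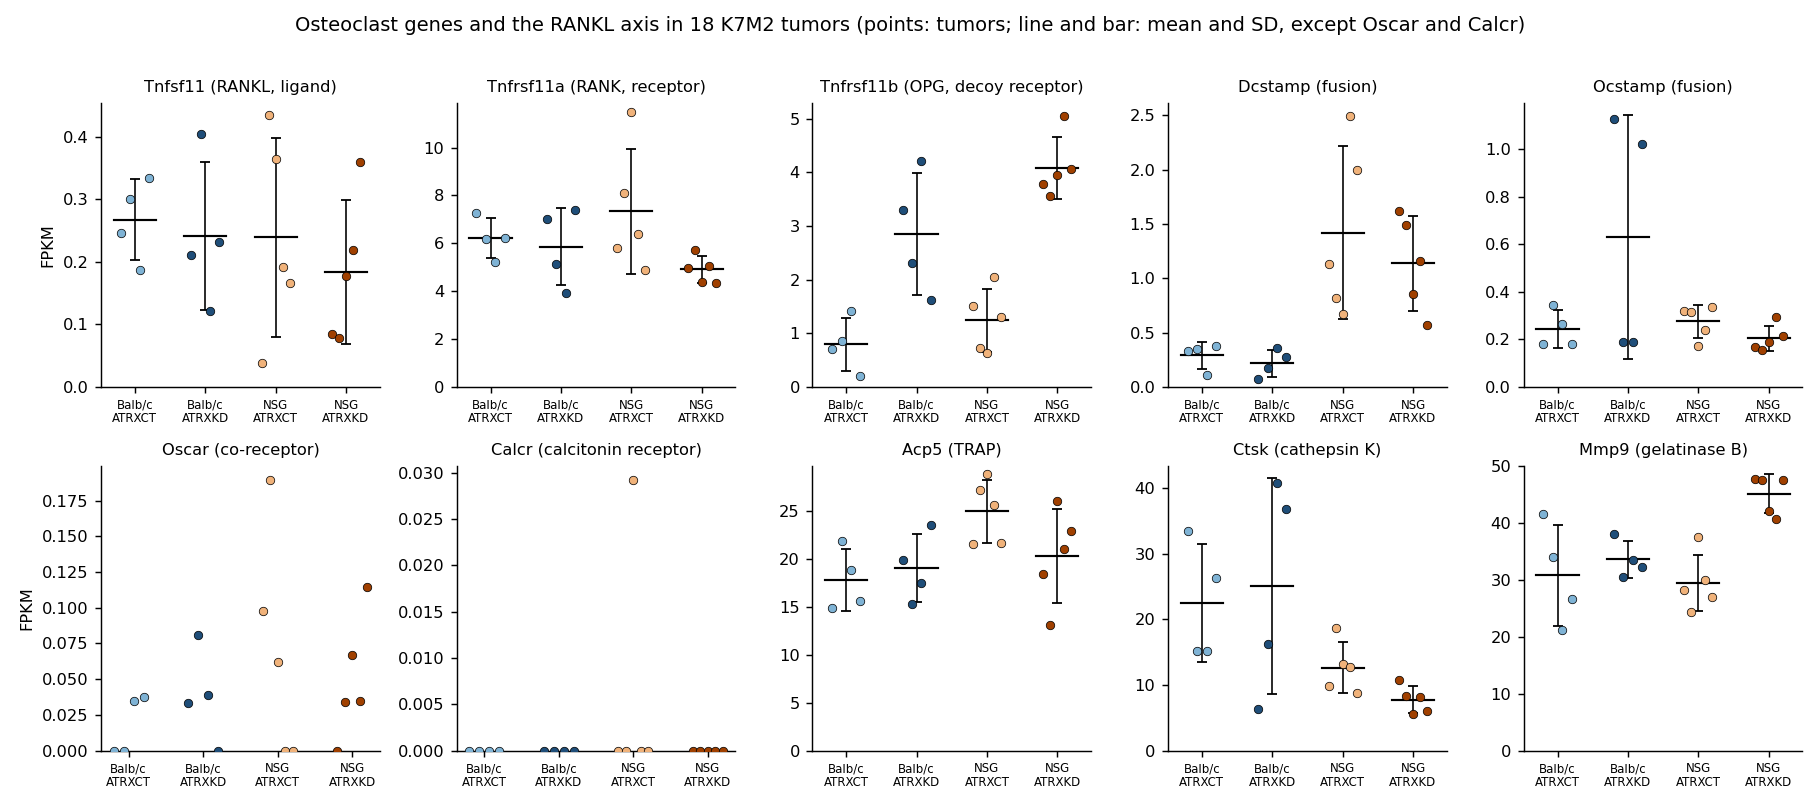
Level of each of the 10 genes in FPKM (vertical axes, linear, 1 scale per gene) in the 4 groups, with 1 point per tumor, the mean as a line, and the SD as a bar (n = 4 in each Balb/c and 5 in each NSG group); *Oscar* and *Calcr* are shown without mean and SD. *Tnfrsf11b* lies higher in ATRXKD than in ATRXCT tumors of either host, and *Dcstamp* lies lower in Balb/c than in NSG tumors. *Mmp9* has its highest mean in the ATRXKD tumors of NSG mice, although the Balb/c ATRXCT tumor of mouse 41 reaches their range.

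The decoy receptor *Tnfrsf11b* (mm10, chr15:54250619-54278484, minus strand, 5 exons) was the gene of the axis that separated ATRXKD from ATRXCT tumors in either host. It encodes osteoprotegerin, a secreted protein without a membrane anchor that binds RANKL and keeps it from RANK. To show the transcript behind this result, the first 150 of its 1203 coding bases are given from the GENCODE M21 transcript of the same build, matched by its RefSeq identifier, with the start codon in capitals.

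Tnfrsf11b: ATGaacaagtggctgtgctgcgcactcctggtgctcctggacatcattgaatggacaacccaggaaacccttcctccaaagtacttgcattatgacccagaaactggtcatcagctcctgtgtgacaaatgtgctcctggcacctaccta

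No window of 75 bases of the *Tnfrsf11b* transcripts occurred in a transcript of another gene. In Balb/c mice, *Tnfrsf11b* was at 0.716, 0.864, 1.41, and 0.206 FPKM in the ATRXCT tumors of mice 41, 43, 44, and 45. The ATRXKD tumors of mice 56, 58, 59, and 60 had 3.30, 2.31, 4.20, and 1.61 FPKM. The lowest ATRXKD tumor (mouse 60) lay above the highest ATRXCT tumor (mouse 44), so the groups did not overlap, and in Balb/c mice 1.25% of all genes tested were higher with no overlap. The mean was 0.799 ± 0.495 in ATRXCT and 2.86 ± 1.14 FPKM in ATRXKD tumors (SD, n = 4 each), a ratio of 3.58. The log2 difference was 1.09 (SE 0.26; 95% confidence interval, 0.51 to 1.67) and did not pass after adjustment over all genes (adjusted p = 0.474, with 0.0753 to 0.9999 over the alternatives, single tumors left out included), while the exact permutation test gave p = 0.0286, the smallest it can give with 4 against 4 tumors.

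In NSG mice the same gene was at 1.51, 0.729, 0.625, 2.06, and 1.30 FPKM in the ATRXCT tumors of mice 1 to 5. The ATRXKD tumors of mice 26 to 30 had 3.78, 3.56, 3.95, 5.06, and 4.05 FPKM. Every ATRXKD tumor was above every ATRXCT tumor, and 4.36% of all genes tested in NSG mice were higher with no overlap. *Tnfrsf11b* rose from 1.24 ± 0.588 to 4.08 ± 0.576 FPKM (SD, n = 5 each), a ratio of 3.28 and a log2 difference of 1.21 (SE 0.17; adjusted p = 0.00705, limma; exact permutation p = 0.00794, the smallest possible). It passed under each alternative and without any single tumor, with an adjusted p of 0.000324 to 0.0281.

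The effect of ATRX knock-down on *Tnfrsf11b* differed between the hosts by −0.12 (SE 0.31; 95% confidence interval, −0.78 to 0.54; adjusted p = 0.93), which leaves room for a difference of either sign. Averaged over the hosts, a comparison added after the values were seen, *Tnfrsf11b* was higher by 1.15 (SE 0.16; adjusted p = 0.00125; exact permutation within hosts, p = 0.000113, the smallest possible). It was the only one of the 8 tested members that passed in this average, in which 2.37% of all genes passed and 1.37% passed as higher. With the fold of at least 2 it still passed there, where 0.122% of all genes did. *Mmp9* passed in this average as well without mouse 41 (adjusted p = 0.029), without mouse 3 (0.041), or with the trend with transcript length removed (0.0418). *Tnfrsf11a* passed in it with library weights (−0.34; adjusted p = 0.0304), while the main test gave −0.28 (adjusted p = 0.316). Among 14803 genes, 39 (0.263%) had ATRXKD tumors above ATRXCT tumors with no overlap in both hosts. Between the hosts, *Tnfrsf11b* was different in Balb/c by −0.32 in ATRXCT tumors (SE 0.23; adjusted p = 0.434) and by −0.44 in ATRXKD tumors (SE 0.19; adjusted p = 0.286), and neither difference passed.

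Osteoprotegerin is known to be made by osteoblasts, stromal cells, and endothelial cells. The mean log2 level of 10 osteoblast markers differed between ATRXKD and ATRXCT tumors by 0.13 in Balb/c mice (exact permutation p = 0.0286; adjusted over 60 marker tests, p = 0.143) and by 0.059 in NSG mice (exact permutation p = 0.238). Of the markers above the filter, 3 were above and 2 below 0 in Balb/c mice, and 3 above and 4 below 0 in NSG mice. Their summed level was 461 to 603 FPKM in ATRXCT and 411 to 843 FPKM in ATRXKD tumors of Balb/c mice, and 381 to 530 and 459 to 616 FPKM in NSG mice. For 7 endothelial markers, the difference in Balb/c mice was 0.39 (exact permutation p = 0.229) and that in NSG mice was 0.61 (exact permutation p = 0.0476, adjusted p = 0.22). Of these markers, 6 were above and 1 below 0 in either host, and 2 passed as higher in NSG mice as single genes with limma. For 7 fibroblast markers, the difference in Balb/c mice was 0.005 (exact permutation p = 1) and that in NSG mice was 0.41 (exact permutation p = 0.254; adjusted p = 0.498), with 7 of 7 markers above 0. The part of these lists in the *Tnfrsf11b* result was not tested.

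The ligand *Tnfsf11* (chr14:78277446-78308043, minus strand, 5 exons) was close to the limit of detection, with an estimated 1 to 19 fragments per tumor. In Balb/c mice it was at 0.246, 0.301, 0.187, and 0.334 FPKM in ATRXCT tumors (mice 41, 43, 44, and 45) and at 0.21, 0.404, 0.121, and 0.232 FPKM in ATRXKD tumors (mice 56, 58, 59, and 60). In NSG mice it was at 0.039, 0.435, 0.364, 0.191, and 0.166 FPKM in ATRXCT tumors and at 0.0839, 0.0787, 0.177, 0.219, and 0.359 FPKM in ATRXKD tumors. The 4 groups overlapped, and the lowest and the highest tumors (mice 1 and 2) belonged to the same group. ATRXKD tumors differed from ATRXCT tumors by −0.032 in Balb/c (SE 0.089; adjusted p = 0.999) and by −0.062 in NSG mice (SE 0.1; adjusted p = 0.736), and Balb/c differed from NSG tumors by 0.041 (ATRXCT) and 0.07 (ATRXKD), with adjusted p of 0.834 and 0.748. The 95% confidence intervals of the knock-down differences were −0.23 to 0.17 in Balb/c and −0.28 to 0.16 in NSG mice.

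The receptor *Tnfrsf11a* (chr1:105780723-105847981, plus strand, 10 exons), which carries the RANKL signal into osteoclast precursors, had an estimated 353 to 1337 fragments per tumor. In Balb/c mice it was at 7.26, 6.19, 5.24, and 6.24 FPKM in ATRXCT and at 6.997, 5.13, 3.94, and 7.37 FPKM in ATRXKD tumors. In NSG mice it was at 5.82, 8.09, 11.5, 6.38, and 4.87 FPKM in ATRXCT and at 4.98, 5.73, 4.40, 5.07, and 4.36 FPKM in ATRXKD tumors. The tumor of mouse 3 stood highest, and all groups overlapped. The log2 difference between ATRXKD and ATRXCT tumors was −0.45 in NSG (SE 0.18; adjusted p = 0.143; exact permutation p = 0.0476) and −0.10 in Balb/c mice (SE 0.19; adjusted p = 0.999). Its difference between hosts was −0.16 in ATRXCT (adjusted p = 0.669) and 0.19 in ATRXKD tumors (adjusted p = 0.616).

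The decoy receptor was therefore set against the ligand and the receptor in each tumor, as a description without a test. The ratio of *Tnfrsf11b* to *Tnfsf11* was 0.616 to 7.53 (median, 2.89) in ATRXCT and 5.71 to 34.7 (median, 11.3) in ATRXKD tumors of Balb/c mice. In NSG mice it was 1.68 to 38.7 (median, 7.82) in ATRXCT and 11.3 to 45.3 (median, 23.1) in ATRXKD tumors. In 17 tumors the decoy receptor was above the ligand, and the exception was the ATRXCT tumor of mouse 45. The groups overlapped in either host. The ATRXCT tumor of mouse 1, at a ratio of 38.7, had an estimated 1 ligand fragment, and the tumor of mouse 45, at 0.616, had the lowest decoy receptor level (0.206 FPKM). The ratio of *Tnfrsf11b* to *Tnfrsf11a*, which rests on more fragments, was 0.033 to 0.269 in ATRXCT and 0.219 to 1.07 in ATRXKD tumors of Balb/c mice, and 0.0544 to 0.322 and 0.621 to 0.997 in NSG mice, where these groups did not overlap.

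**Figure D2:**
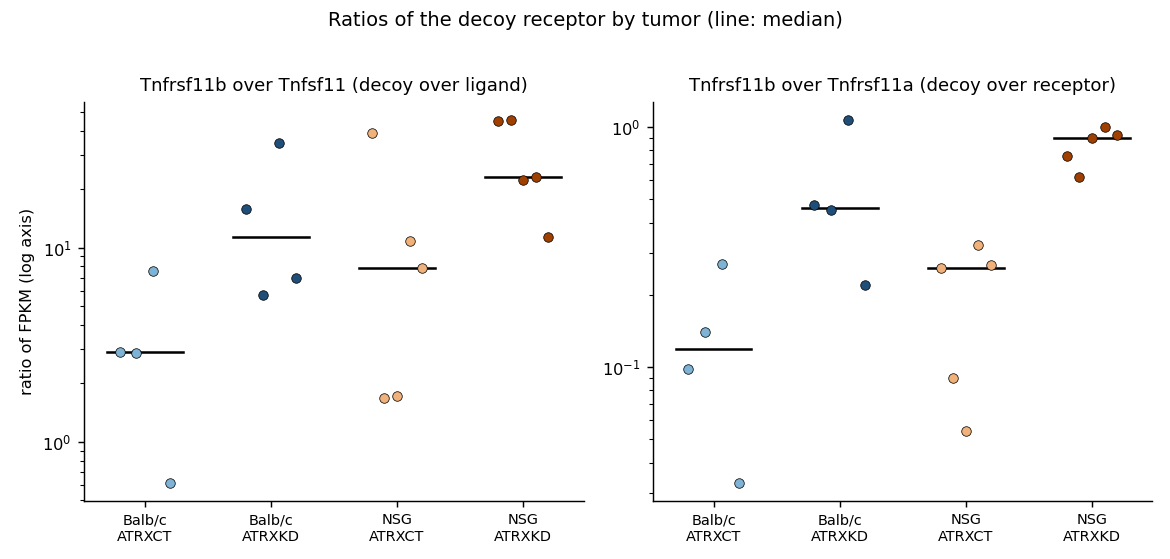
Ratio of *Tnfrsf11b* to *Tnfsf11* (left) and to *Tnfrsf11a* (right) in FPKM, on log axes, with 1 point per tumor and the median of each group as a line. The medians for the ligand run from 2.89 to 11.3 in Balb/c and from 7.82 to 23.1 in NSG mice, from ATRXCT to ATRXKD tumors, with overlap between these groups.

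*Dcstamp* and *Ocstamp* encode membrane proteins that osteoclast precursors need to fuse with each other. *Dcstamp* (chr15:39745930-39760938, plus strand) was the member that separated the hosts, so the first 150 of its 1410 coding bases are shown, again with the start codon in capitals.

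Dcstamp: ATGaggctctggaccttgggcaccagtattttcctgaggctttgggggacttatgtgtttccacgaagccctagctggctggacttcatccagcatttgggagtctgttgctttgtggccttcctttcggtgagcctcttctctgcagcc

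In Balb/c mice, *Dcstamp* was at 0.335, 0.35, 0.107, and 0.376 FPKM in ATRXCT tumors and at 0.0699, 0.172, 0.36, and 0.274 FPKM in ATRXKD tumors. In NSG mice it was at 1.13, 0.815, 0.67, 2.50, and 2.00 FPKM in ATRXCT tumors and at 1.62, 1.49, 0.854, 1.16, and 0.57 FPKM in ATRXKD tumors. Every Balb/c tumor was below every NSG tumor, and the share of all genes tested that were lower in Balb/c with no overlap was 2.85% in ATRXCT and 3.05% in ATRXKD tumors. The ratio of the Balb/c to the NSG mean was 0.205 in ATRXCT and 0.192 in ATRXKD tumors. *Dcstamp* fell in Balb/c against NSG ATRXKD tumors, with a log2 difference of −0.79 (SE 0.15; adjusted p = 0.0169; exact permutation p = 0.0159), though not without mouse 58 (adjusted p = 0.0517), and it was not tested where the filter was 1 FPKM. In ATRXCT tumors the difference was −0.85 (SE 0.21; adjusted p = 0.0573; exact permutation p = 0.0159). It passed there with a pseudocount of 0.1 (adjusted p = 0.0291), in a fit of all 4 groups (0.0143), with library weights (0.00435), and without mouse 3 (0.0237), within a range of 0.00435 to 0.145 over the alternatives.

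ATRX knock-down gave no call for *Dcstamp*, with a log2 difference of −0.085 in Balb/c (SE 0.11; adjusted p = 0.999) and −0.14 in NSG mice (SE 0.22; adjusted p = 0.716). An estimated 3 to 83 *Dcstamp* fragments were counted per tumor. Dendritic cells also express this gene, and the mean log2 level of 7 dendritic cell markers differed between Balb/c and NSG tumors by 0.21 in ATRXCT (exact permutation p = 0.325) and by 0.28 in ATRXKD tumors (exact permutation p = 0.0238; adjusted over 60 marker tests, p = 0.143). The part of these cells in the *Dcstamp* result was not tested.

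*Ocstamp* (chr2:165395450-165400394, minus strand, 3 exons) was at 0.18, 0.345, 0.265, and 0.18 FPKM in the ATRXCT tumors of Balb/c mice and at 1.13, 0.19, 0.187, and 1.02 FPKM in the ATRXKD tumors. In NSG tumors it stayed between 0.171 and 0.335 FPKM (ATRXCT) and between 0.157 and 0.292 FPKM (ATRXKD). The ATRXKD tumors of mice 56 and 60 stood above the other 16 tumors, with an estimated 46 and 36 fragments, and the rest of their group lay among the controls. No comparison of *Ocstamp* passed (adjusted p of 0.324 to 0.999 for the 4 comparisons of groups), and its knock-down effect in Balb/c minus that in NSG mice was 0.42 (SE 0.20; adjusted p = 0.493).

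*Oscar*, the co-receptor that amplifies RANK signaling in precursors, and *Calcr*, the calcitonin receptor of mature osteoclasts, were at or near 0. *Oscar* (chr7:3609813-3616157, minus strand) was listed at 0 in 6 tumors and reached 0.19 FPKM in the tumor of mouse 2, an estimated 6 fragments. *Calcr* (chr6:3685720-3764713, minus strand) was listed at 0 in 17 tumors, and the tumor of mouse 3 had 0.0292 FPKM, an estimated 3 fragments. A count of 0 allows up to 3 fragments, or 0.0324 to 0.0539 FPKM of *Calcr* over these depths (counting error only). The other osteoclast markers, which are not members (*Atp6v0d2*, *Nfatc1*, *Itgb3*, *Car2*, *Siglec15*, *Tcirg1*, *Clcn7*, and *Ostm1*), were above 0 in every tumor for 7 of 8, the exception being *Siglec15*, with a summed level of 102 to 174 FPKM. Most of them are also expressed by macrophages, whose 10 markers summed to 1474 to 2846 FPKM.

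Of the resorption enzymes, *Acp5* (chr9:22126727-22135746, minus strand) encodes tartrate-resistant acid phosphatase, the stain by which osteoclasts are recognized, and *Ctsk* (chr3:95499210-95509387, plus strand, 8 exons) encodes cathepsin K, the protease that digests bone collagen. Both are classical targets of RANK signaling, so the 250 bases before 1 start of each gene are shown from the RefSeq table (GRCm38.p6), in which 6 of the 10 members had an entry. *Ctsk* is chr3:95498960-95499209 (plus strand), and *Acp5* is chr9:22130599-22130848 (minus strand), 1 of 3 starts that the gene values do not separate. Capitals mark the NFAT core GGAAA, the AP-1 site TGANTCA, and the E-box CANNTG, searched on both strands.

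Ctsk: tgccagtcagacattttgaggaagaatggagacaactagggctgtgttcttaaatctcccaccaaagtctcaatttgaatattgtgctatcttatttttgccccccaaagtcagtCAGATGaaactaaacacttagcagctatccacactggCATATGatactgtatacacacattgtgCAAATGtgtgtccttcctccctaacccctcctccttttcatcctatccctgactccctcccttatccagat

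Acp5: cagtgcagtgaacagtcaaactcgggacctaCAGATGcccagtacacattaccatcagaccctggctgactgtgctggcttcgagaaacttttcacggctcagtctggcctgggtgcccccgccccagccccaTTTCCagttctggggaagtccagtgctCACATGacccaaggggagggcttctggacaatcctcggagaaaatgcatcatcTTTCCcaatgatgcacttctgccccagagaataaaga

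The *Ctsk* stretch held 3 E-boxes and neither of the other motifs, and the *Acp5* stretch held 2 NFAT cores and 2 E-boxes. Over 32851 stretches of the same length in the table, 55.6% held an NFAT core, 6.75% an AP-1 site, and 66.2% an E-box, so these matches are common, and they describe letters only.

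In Balb/c mice, *Acp5* was at 14.9, 21.8, 18.8, and 15.7 FPKM in ATRXCT and at 19.9, 15.3, 17.5, and 23.6 FPKM in ATRXKD tumors. In NSG mice it was at 21.6, 27.2, 28.9, 25.6, and 21.6 FPKM in ATRXCT and at 18.4, 13.1, 26.0, 21.0, and 22.9 FPKM in ATRXKD tumors. The hosts overlapped by a narrow margin in ATRXCT tumors, where only the highest Balb/c tumor (mouse 43) reached the NSG values. Balb/c differed from NSG by −0.47 in ATRXCT (SE 0.14; adjusted p = 0.113; exact permutation p = 0.0238; 0.0163 with library weights, within 0.0163 to 0.254 over the alternatives) and by −0.069 in ATRXKD tumors (SE 0.19; adjusted p = 0.887). Knock-down gave a difference of 0.093 in Balb/c (SE 0.17; adjusted p = 0.999) and of −0.31 in NSG mice (SE 0.16; adjusted p = 0.248), and a share of 3.41% of the *Acp5* windows of 75 bases also occurred in 6530413G14Rik.

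*Ctsk* varied widely within the Balb/c groups. In Balb/c mice it was at 33.5, 15.2, 15.2, and 26.3 FPKM in ATRXCT and at 6.41, 16.2, 40.9, and 36.8 FPKM in ATRXKD tumors. The ATRXKD tumors of Balb/c mice thus held the highest *Ctsk* value of all tumors (mouse 59) and a value (mouse 56) below every ATRXCT tumor. In NSG mice it was at 9.85, 18.7, 13.2, 12.7, and 8.84 FPKM in ATRXCT and at 10.7, 8.35, 5.57, 8.15, and 6.10 FPKM in ATRXKD tumors. The means were 22.5 ± 8.997 and 25.1 ± 16.5 FPKM (SD, n = 4 each) in Balb/c against 12.6 ± 3.85 and 7.78 ± 2.05 FPKM (SD, n = 5 each) in NSG mice. Balb/c differed from NSG by 0.75 in ATRXCT (SE 0.27; adjusted p = 0.173; exact permutation p = 0.0635) and by 1.30 in ATRXKD tumors (SE 0.45; adjusted p = 0.171; exact permutation p = 0.0476). The latter passed without mouse 56 (adjusted p = 0.00997), and both passed with library weights (0.00674 and 0.0119), within 0.00674 to 0.368 and 0.00997 to 0.345 over the alternatives. Knock-down in NSG mice gave −0.62 (SE 0.20; adjusted p = 0.0819; exact permutation p = 0.0397), which passed without mouse 26 (adjusted p = 0.0452) and with library weights (0.0133), within 0.0133 to 0.343 over the alternatives, and knock-down in Balb/c mice gave −0.071 (SE 0.53; adjusted p = 0.999).

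Fibroblasts also express *Ctsk*. The mean of 7 fibroblast markers differed between Balb/c and NSG tumors by −0.55 in ATRXCT (exact permutation p = 0.0635) and by −0.96 in ATRXKD tumors (exact permutation p = 0.0556), with adjusted p of 0.238 and 0.222 over 60 marker tests. The mean of the 8 other osteoclast markers was 3.38 ± 0.125 and 3.34 ± 0.0781 in Balb/c (ATRXCT and ATRXKD; SD, n = 4 each) against 2.98 ± 0.156 and 2.84 ± 0.0727 in NSG tumors (SD, n = 5 each), and the host differences were 0.40 (exact permutation p = 0.0159; adjusted, 0.106) and 0.50 (exact permutation p = 0.00794; adjusted, 0.0952). Of the 8 osteoclast markers, 6 were above and 2 below 0 in ATRXCT tumors, and 7 above and 1 below 0 in ATRXKD tumors. As single genes with limma, 2 passed as higher in ATRXCT and 1 in ATRXKD tumors, where 3.18% and 3.64% of all genes passed. The members *Dcstamp* and *Acp5* had host differences of the other sign. The part of these lists in the *Ctsk* values was not tested.

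*Mmp9* (chr2:164948219-164955850, plus strand, 13 exons) encodes gelatinase B, a matrix protease of osteoclasts that neutrophils and macrophages also release. Its catalytic zinc is held by 3 histidines, and coding bases 1171 to 1263 of 2190, found by the residue pattern of that site, are shown with the 3 histidine codons in capitals.

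Mmp9: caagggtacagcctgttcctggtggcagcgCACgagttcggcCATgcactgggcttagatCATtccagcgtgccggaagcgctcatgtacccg

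In NSG mice, *Mmp9* was at 28.2, 24.5, 37.5, 30.1, and 27.1 FPKM in ATRXCT and at 47.9, 47.7, 42.2, 40.8, and 47.6 FPKM in ATRXKD tumors. Every ATRXKD tumor was above every ATRXCT tumor, as in 4.36% of all genes tested in NSG mice. *Mmp9* rose from 29.5 ± 4.93 to 45.2 ± 3.44 FPKM (SD, n = 5 each), a ratio of 1.53 and a log2 difference of 0.61 (SE 0.11; adjusted p = 0.0148; exact permutation p = 0.00794, the smallest possible). It passed under each alternative that kept all tumors (adjusted p of 0.000414 to 0.0258) and without any tumor except that of mouse 30, whose removal gave an adjusted p of 0.0522.

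In Balb/c mice, *Mmp9* was at 41.7, 34.0, 21.2, and 26.7 FPKM in ATRXCT and at 38.1, 30.5, 33.6, and 32.3 FPKM in ATRXKD tumors. The ATRXKD values lay within the range of the ATRXCT values, with a difference of 0.16 (SE 0.20; adjusted p = 0.999). The effect in Balb/c minus that in NSG mice was −0.46 (SE 0.22; adjusted p = 0.493), so the hosts were not shown to differ in the main test, while the fit with library weights gave an adjusted p of 0.0176, within 0.0176 to 0.698 over the alternatives. Balb/c and NSG tumors did not overlap in ATRXKD (difference, −0.42; SE 0.098; adjusted p = 0.0457; exact permutation p = 0.00794) and differed by 0.037 in ATRXCT tumors (SE 0.19; adjusted p = 0.925). Of all genes tested in ATRXKD tumors, 3.05% were lower in Balb/c with no overlap. The call in ATRXKD tumors was lost without any 1 of mice 26, 27, 28, 29, 30, 58, 59, and 60 (adjusted p of 0.0729 to 0.135), and it was kept without mouse 56 (0.0264). It was also lost with a filter of 1 FPKM (0.0618), with median-ratio scaling (0.0714), without the 2 tumors with keratinocyte RNA (0.115), and in a fit of all 4 groups (0.158), within 0.00811 to 0.158 over the alternatives.

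Markers of the other sources of *Mmp9* were set beside this result. Between ATRXKD and ATRXCT tumors of NSG mice, the mean of 10 macrophage markers differed by −0.47 (exact permutation p = 0.0159; adjusted over 60 marker tests, p = 0.106), 9 of its 10 markers being lower, with a summed level of 1474 to 2160 FPKM against 1954 to 2846 FPKM. The mean of 10 neutrophil markers differed by −0.31 (exact permutation p = 0.0873), 7 of 10 being lower, with summed levels of 45.3 to 141 FPKM against 81.4 to 198 FPKM, and *S100a8*, *S100a9*, *Cxcr2*, and *Retnlg* were the markers well above 0. Neither passed after adjustment. Between Balb/c and NSG ATRXKD tumors, the neutrophil mean differed by 0.64 (exact permutation p = 0.0159; adjusted p = 0.106). The part of these cells in the *Mmp9* result was not tested.

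**Figure D3:**
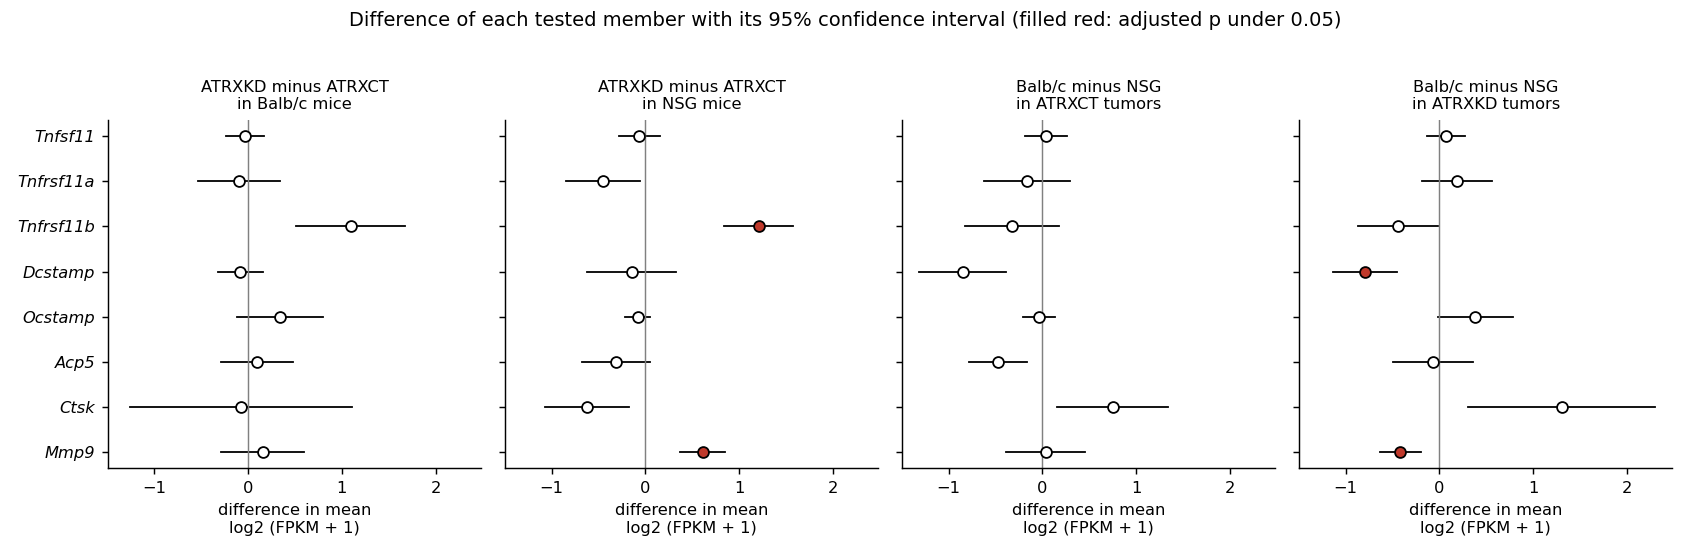
Difference in mean log2 (FPKM + 1) of the 8 tested members (horizontal axis) in the 4 comparisons of groups, with 95% confidence intervals as lines and adjusted p under 0.05 as red points. *Tnfrsf11b* and *Mmp9* passed in NSG mice for knock-down, and *Dcstamp* and *Mmp9* passed between hosts in ATRXKD tumors.

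Counted over the 8 tested members, none passed for knock-down in Balb/c mice with limma, where 0.0068% of all genes did (1 of 14701), and 1 member had an unadjusted p under 0.05, against 4.14% of all genes. In NSG mice 2 members passed, both higher, where 6.78% of all genes passed (994 of 14654) and 3.73% passed as higher. With the fold of at least 2, only *Tnfrsf11b* did, against 0.464% of all genes. At an unadjusted p under 0.05 there were 4 members, against 26.3% of all genes. Between hosts, no member passed in ATRXCT tumors, where 3.18% of all genes did, and 3 members (*Acp5*, *Ctsk*, and *Dcstamp*) had an unadjusted p under 0.05, against 19.3% of all genes. In ATRXKD tumors 2 members passed, both lower in Balb/c, where 3.64% of all genes passed and 0.839% passed as lower. At an unadjusted p under 0.05 there were 4 members (*Tnfrsf11b*, *Ctsk*, *Mmp9*, and *Dcstamp*), against 16.4% of all genes. With the fold of at least 2, taken on the log2 (FPKM + 1) scale, no member passed between hosts. The shares of all genes were 1.43% (ATRXCT) and 1.39% (ATRXKD). This scale shrinks the change of *Dcstamp*, whose Balb/c mean in ATRXKD tumors was 0.192 of the NSG mean in FPKM. For the difference between the knock-down effects, no member and no gene passed (0% of 14803), and no member had an unadjusted p under 0.05, against 10.3% of all genes. The fit with library weights passed 1 member, *Mmp9*, and no share of all genes is given for that fit. The comparisons share tumors (each group enters a knock-down and a host comparison), so their calls are not independent of each other.

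The rest of the pathway was described by 8 lists of 100 genes that hold none of the members, 99 of which were in the matrix (*Il17a* was not analysed here). None of the 99 passed for knock-down in Balb/c mice, and the median log2 difference was −0.074, against −0.0032 over all genes tested. In NSG mice, 9 of the 96 tested (9.38%) passed, against 6.78% of all genes, 2 higher and 7 lower, with a median of −0.062 against −0.0014. The count was 0 with the fold of at least 2, against 0.464% of all genes, and 45 with library weights. It ranged from 1 to 20 when single tumors were left out (1 without mouse 30, 2 without 28, 3 without 4, 5 without 1 or 29, 16 without 26, and 20 without 3). For library weights and single tumors left out, no share of all genes is given, here or below, so these counts lack a background.

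The 2 pathway genes that rose in NSG mice were *Sdc1*, a heparan sulfate proteoglycan, which went from 19.2 ± 1.84 to 29.8 ± 3.74 FPKM (log2 difference, 0.60; adjusted p = 0.014), and *Cd44*, a hyaluronan receptor, from 94.3 ± 5.30 to 118 ± 9.39 FPKM (0.32; adjusted p = 0.0445). Their ATRXKD and ATRXCT tumors did not overlap, and 4.36% of all genes tested in NSG mice were higher with no overlap. Of the co-stimulation list, *Trem2* fell from 77.5 ± 14.3 to 38.9 ± 11.5 FPKM (−0.998; adjusted p = 0.0169) and its adaptor *Tyrobp* from 436 ± 82.5 to 258 ± 86.0 FPKM (−0.79; adjusted p = 0.0477). These were 2 of 8 genes tested, where 6.78% of all genes passed, and the list's median was −0.50. The ATRXKD and ATRXCT tumors overlapped for *Trem2* and for *Tyrobp*. Macrophages express both genes, and the macrophage markers were lower in the same tumors, as given for *Mmp9*. The part of these cells in the result was not tested.

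Of the kinases, *Tec* fell from 13.2 ± 0.998 to 8.90 ± 1.25 FPKM (−0.52; adjusted p = 0.0194) and *Map3k7*, which encodes the TAK1 kinase downstream of RANK, from 33.04 ± 1.12 to 25.9 ± 0.974 FPKM (−0.34; adjusted p = 0.0193), while the median of the 18 genes was 0.029. Of the repressors of osteoclast formation, *Irf8* fell by 0.49 (adjusted p = 0.0427) and the inhibitory receptor *Lilrb4a* fell by 0.68 (adjusted p = 0.0199). These were 2 of 7 tested, where 6.78% of all genes passed. *Atp6v0d2*, a proton pump subunit that takes part in fusion, fell from 14.8 ± 3.15 to 7.49 ± 2.59 FPKM (−0.92; adjusted p = 0.0255). These values for NSG mice are mean ± SD with n = 5 in each group. The ATRXKD and ATRXCT tumors overlapped for *Irf8* and for *Atp6v0d2*. The mean of the macrophage markers was lower in the same tumors, though not after adjustment, and its part in the values of these lists was not tested. None of the 14 resorption genes passed for knock-down in NSG mice, with a median of −0.28. Averaged over the hosts, *Sdc1* (0.40) and *Tspan7* (0.56) passed as higher and *Tec* (−0.40) and *Map3k7* (−0.32) as lower, with adjusted p of 0.0171 to 0.0348.

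Between hosts, 7 of 99 pathway genes (7.07%) passed in ATRXCT tumors, 6 higher in Balb/c and 1 lower, against 3.18% of all genes, and 5 (5.05%) passed in ATRXKD tumors, all higher in Balb/c, against 3.64% of all genes. Over the alternatives these counts ranged from 3 (fold of at least 2) to 27 and from 3 to 19 (library weights). With the fold of at least 2, 1.43% (ATRXCT) and 1.39% (ATRXKD) of all genes passed. *Ifng*, the T and NK cell cytokine that restrains osteoclast formation, was listed at 0 in the 5 NSG ATRXCT tumors and was 0.619 to 1.31 FPKM in Balb/c ATRXCT tumors (adjusted p = 0.000424), and it was 0.689 to 1.89 against at most 0.104 FPKM in ATRXKD tumors (adjusted p = 0.000989). *Eomes*, a transcription factor of cytotoxic lymphocytes that stands in the repressor list, was 1.67 ± 0.34 against 0.0065 ± 0.009 FPKM in ATRXCT tumors (adjusted p = 9.57e-06) and passed in ATRXKD tumors too (adjusted p = 1.97e-05). Both mark cells that NSG mice lack. *Car2*, the carbonic anhydrase that supplies protons for resorption, was higher in Balb/c by 1.14 in ATRXCT (adjusted p = 0.00891) and by 1.76 in ATRXKD tumors (adjusted p = 0.00657), from 1.30 ± 0.523 to 4.07 ± 1.18 FPKM and from 0.852 ± 0.28 to 5.83 ± 3.44 FPKM (SD, n = 5 in NSG and 4 in Balb/c).

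In ATRXCT tumors alone, *Wnt5a* (0.86; adjusted p = 0.00655), which enhances RANK expression, and the integrin genes *Itgb3* (0.97; adjusted p = 0.0213) and *Itgav* (0.78; adjusted p = 0.0371), whose products form the osteoclast vitronectin receptor, passed as higher in Balb/c. *Pirb*, an inhibitory receptor, passed as lower (−1.11; adjusted p = 0.0071). In ATRXKD tumors alone, *Irf8* (0.91; adjusted p = 0.00115) and *Batf3* (0.72; adjusted p = 0.0201) passed as higher in Balb/c. In the difference between the knock-down effects, which is also the difference between these host effects, none of the 99 genes passed in the main test and 27 passed with library weights, so a call in ATRXCT or ATRXKD tumors alone was not shown to differ between them. The number of pathway genes that passed in ATRXCT tumors was 11 without mouse 3, and in ATRXKD tumors 8 without mouse 26.

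**Figure D4:**
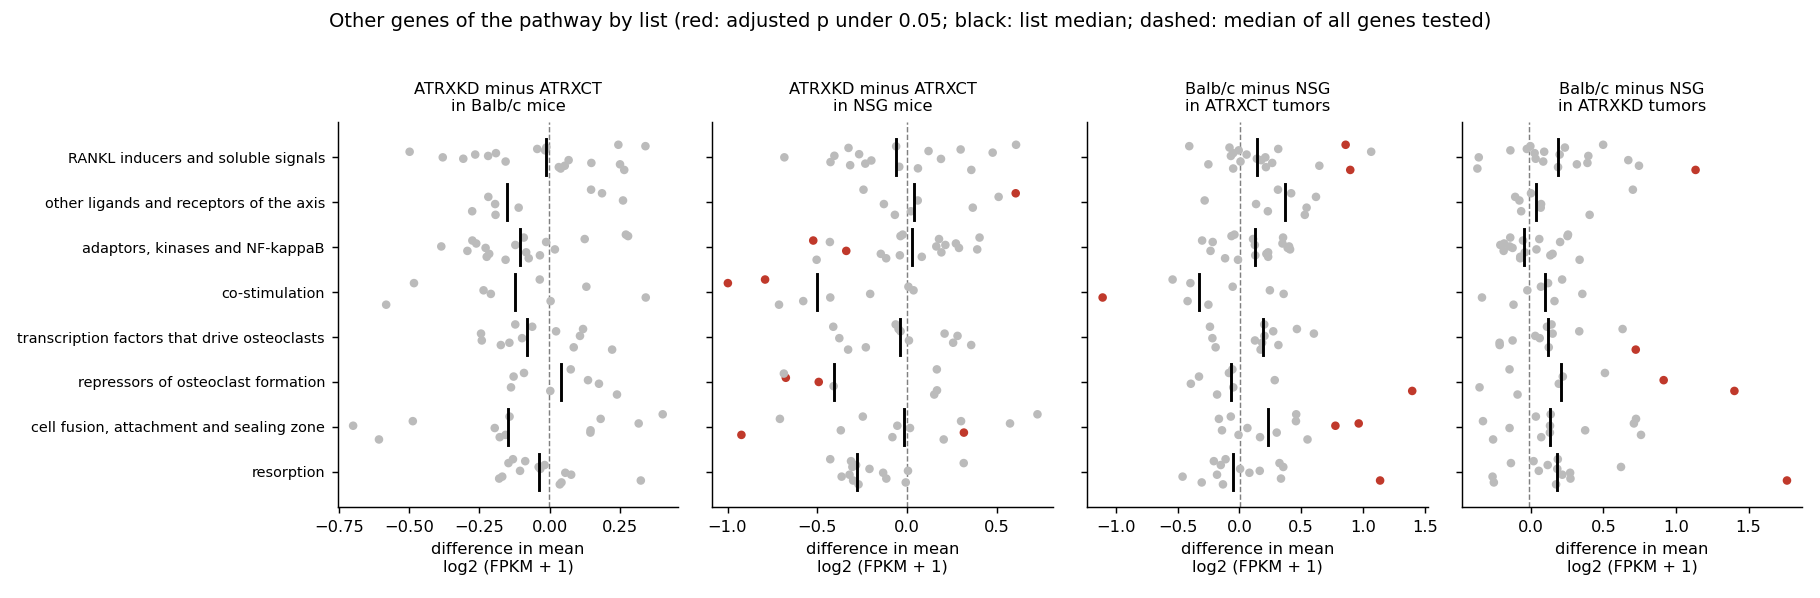
Difference in mean log2 (FPKM + 1) (horizontal axes, 1 scale per panel) of the pathway genes other than the members, by list, in the 4 comparisons of groups, with 1 point per gene, red points for adjusted p under 0.05, black lines for list medians, and a dashed line for the median of all genes tested. No point is red for knock-down in Balb/c mice, and 9, 7, and 5 points are red in the next 3 panels.

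Whether the members vary together between tumors of a group was tested for 14 pairs on values from which the group mean was taken, with permutation within groups over 18 tumors. No pair passed after adjustment over the 14 pairs (smallest adjusted p = 0.416 for Pearson's r and 0.41 for Spearman's rho). The pair with the smallest p was *Tnfsf11* and *Tnfrsf11b* (Pearson r = −0.51, permutation p = 0.0523; Spearman rho = −0.49, permutation p = 0.062), with r = −0.66 in the 8 Balb/c and −0.46 in the 10 NSG tumors, and r = −0.44 without the 2 tumors farthest from the median of *Tnfsf11*. The resorption enzymes showed little relation to each other, with r = −0.13 for *Acp5* and *Ctsk*, −0.054 for *Acp5* and *Mmp9*, and 0.05 for *Ctsk* and *Mmp9* (permutation p of 0.647, 0.832, and 0.841; rho = −0.13, −0.04, and 0.049). A relation was not shown between *Acp5* and the macrophage markers (r = 0.026, permutation p = 0.931) or between *Mmp9* and the neutrophil markers (r = −0.37, permutation p = 0.382). For *Acp5* and *Tnfsf11*, r was 0.38 over the 18 tumors (permutation p = 0.145). That r was 0.66 in the 10 NSG tumors (rho = 0.81; permutation p = 0.00979, adjusted p = 0.137) and −0.28 in the 8 Balb/c tumors.

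The genes with the most similar pattern are given as a description, by Pearson r on values from which the group mean was taken. They top a search of 12180 genes (12181 for *Tnfsf11*) that averaged 1 FPKM or more, over the same 18 tumors. A high r can arise by chance in such a search, and none was tested. For *Tnfrsf11b* the genes were *Zfp932* (r = 0.95), *Yae1d1* (0.92), and *Vmp1* (0.89), and for *Ctsk* they were *Tubgcp2* (0.85), *Lyve1* (0.84), and *Haus4* (0.84). For *Acp5* they were *Gbp6* (0.83), *Gm4759* (0.80), and *Klhdc8a* (0.78), and for *Tnfsf11* they were *Mrps2* (0.86), *Cox8b* (0.86), and *Tapbp* (0.85). The *Tnfsf11* pattern rests on an estimated 1 to 19 fragments per tumor.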

How the data were processed

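Total RNA of 18 tumors was depleted of ribosomal RNA and sequenced from stranded libraries, 1 library per tumor. Per the study's methods, the authors aligned reads to mm10 with STAR 2.6.0c, filtered them by quality, dropped duplicates, and estimated levels of RefSeq genes with Cufflinks 2.2.1. The deposited values are log2 (FPKM + 1), with no normalization between libraries stated, and the deposited annotation holds start and end coordinates. Removal of duplicates can flatten abundant transcripts, and counts were not used here, so that depth was estimated (15150000 to 25200000 fragments per tumor; 35.5% to 39.9% of low values lay within 0.1 of a whole fragment, against 20% by chance, so whole reads were not recovered). Fragment numbers are approximate, and floors cover counting error only.

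Groups came from the labels. Each comparison was a limma 3.58.1 fit (R 4.3.3, moderated with a trend) on the deposited scale in the tumors compared. It ran over genes that averaged 0.1 FPKM or more, with Benjamini-Hochberg adjustment over all genes tested. Passed means an adjusted p under 0.05. The fold of at least 2 used in the study is an alternative, here taken on the log2 (FPKM + 1) scale, which differs from a fold of counts. The authors used DESeq, a count test, which these values could not take. Exact permutation tests were two-sided, and group-centred correlations used 100000 resamples. The mean over a marker list was compared by the exact permutation test and adjusted over 60 tests (15 lists, 4 comparisons). The fit was also run on simulated data, with shifts larger than the member differences and in genes above the level of most members. That run does not bear on the member calls. The members and lists were chosen with earlier results of these data known. Named pathway genes were all that passed for knock-down, and up to 3 per list and host comparison with the largest differences; the Y-linked genes were picked once their values had been seen. Promoter sequences came from RefSeq (GRCm38.p6) and coding sequences from GENCODE M21. Alternatives were a pseudocount of 0.1, a mean of at least 1 FPKM, no filter, median-ratio scaling, a fit of all 4 groups, library weights with a robust prior, removal of the trend with transcript length, leaving out 2 Balb/c tumors with keratinocyte RNA (mice 45 and 60), and leaving out each tumor in turn.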

Additional observations from a re-analysis of the deposited data

Results flagged for a closer look

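Of 37 sets of 4 or 5 tumors of a group checked for 1 tumor far from the rest, 2 had one, and chance gives about 1.85. *Dcstamp* in the Balb/c ATRXCT tumor of mouse 44 was at 0.147 on the log2 (FPKM + 1) scale (0.107 FPKM, an estimated 4 fragments), against 0.417 to 0.46 (0.335 to 0.376 FPKM) in the others of its group. *Calcr* in the NSG ATRXCT tumor of mouse 3 was at 0.0415 on the same scale (0.0292 FPKM, an estimated 3 fragments), while the others of its group were listed at 0.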

How the results depend on the processing

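No paired analysis was possible because the mouse numbers are not shared between groups. Depth limits *Tnfsf11*, *Ocstamp*, *Oscar*, and *Calcr* (medians of 10, 8, 1, and 0 estimated fragments). Median-ratio scaling moved the median of all genes by less than 0.1. The higher *Tnfrsf11b* in ATRXKD tumors kept its direction under each alternative in both hosts, single tumors left out included, with log2 differences of 0.917 to 1.84. For counts that moved, the cause was not tested, and no share of all genes is given for the alternatives other than the fold.

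With the fold of at least 2, 1 member and 0 pathway genes passed for knock-down in NSG mice, where 0.464% of all genes did. Between hosts with this fold, 3 pathway genes passed in ATRXCT tumors, where 1.43% of all genes did. In ATRXKD tumors, 0 members and 3 pathway genes passed, where 1.39% of all genes did. With library weights, 45 pathway genes passed for knock-down in NSG mice, 27 (and 3 members) between hosts in ATRXCT tumors, and 19 between hosts in ATRXKD tumors. For the difference between knock-down effects, 27 (and 1 member) passed, and 2 members passed averaged over the hosts. *Ctsk* was gained with these weights for knock-down in NSG mice (adjusted p = 0.0133) and between hosts in ATRXKD tumors (adjusted p = 0.0119). Removing the length trend gave 15 pathway genes in NSG mice and 2 members averaged over the hosts. In ATRXCT tumors, 1 member passed between hosts with a pseudocount of 0.1 and with all 4 groups fitted. In ATRXKD tumors, 1 member passed between hosts with median-ratio scaling, with all 4 groups fitted, and without the tumors with keratinocyte RNA, and 0 members and 3 pathway genes passed with a mean of at least 1 FPKM.

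Signs turned for differences that did not pass. With library weights, *Tnfsf11* became 0.014 (Balb/c), 0.075 (NSG), −0.044 (difference of effects), and 0.046 (average), *Tnfrsf11a* became 0.14 (hosts, ATRXCT) and −0.065 (difference of effects), *Mmp9* became −0.10 (Balb/c), *Tnfrsf11b* became 0.041 (difference of effects), and *Ocstamp* became −0.0061 (average). With a pseudocount of 0.1, the difference of effects became 0.099 for *Tnfrsf11b* and −0.10 for *Dcstamp*, and without the tumors with keratinocyte RNA, *Acp5* became −0.062 (Balb/c). Correlations turned for *Acp5* with *Tnfsf11* (−0.28 in Balb/c alone), for *Ctsk* with *Tnfsf11* (−0.015 with a pseudocount of 0.1, −0.014 with median-ratio scaling, and −0.20 in Balb/c alone), for *Acp5* with macrophage markers (−0.017 with median-ratio scaling and −0.084 in Balb/c alone), and for *Tnfsf11* with osteoblast markers (0.0055 in Balb/c alone).

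Without single tumors, knock-down in Balb/c mice ranged from −0.093 to 0.015 for *Tnfsf11*, from −0.21 to 0.046 for *Tnfrsf11a*, from −0.0091 to 0.19 for *Acp5*, from −0.40 to 0.43 for *Ctsk*, and from −0.0023 to 0.31 for *Mmp9*. In NSG mice, 1 to 3 members and 1 to 20 pathway genes passed, and *Dcstamp* ranged from −0.26 to 0.0037. Between hosts, 0 to 1 members and 5 to 11 pathway genes passed in ATRXCT tumors, where *Tnfsf11* ranged from −0.021 to 0.096 and *Mmp9* from −0.12 to 0.20, and 0 to 3 members and 4 to 8 pathway genes passed in ATRXKD tumors, where *Acp5* ranged from −0.21 to 0.025. The difference of effects ranged from −0.031 to 0.091 for *Tnfsf11*, from −0.30 to 0.054 for *Tnfrsf11b*, and from −0.088 to 0.18 for *Dcstamp*, and 1 to 2 members passed averaged over the hosts.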
